A study of Caenorhabditis elegans with 2 samples.

Results

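HSP70 chaperones grip short hydrophobic stretches of unfolded proteins and release them in a cycle driven by ATP. J-domain proteins bring the client and stimulate ATP hydrolysis, and nucleotide exchange factors, among them the HSP110 relatives of HSP70, free the bound ADP. Animals keep separate HSP70 proteins in the cytosol, the endoplasmic reticulum and the mitochondria. Some are made at all times, and others mainly when HSF-1, the heat shock factor, or the unfolded protein responses are active.

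The genes described here are 8 members of this family in Caenorhabditis elegans, out of 19973 nuclear protein-coding genes in the annotation. They are hsp-1, the constitutive cytosolic HSC70; hsp-110, an HSP110-type exchange factor; hsp-70, F44E5.4 and F44E5.5, heat-inducible cytosolic HSP70 genes; hsp-3 and hsp-4, which encode the BiP chaperones of the endoplasmic reticulum; and hsp-6, the mitochondrial HSP70. They were chosen by name, from a list drawn up with their peaks already known, so the presence and height of those peaks describe the choice and were not tested. The data are ChIP-seq peak lists for AMA-1, which is the largest RNA polymerase II subunit, in mixed-sex whole larvae at the L2 stage of the wild-type N2 strain. There is 1 group with 2 biological replicates, and no other stage, genotype or treatment stands beside it. The labels name no heat shock. Whole larvae pool all tissues, so a high signal in a few cells and a lower one in many cannot be told apart.

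The signal is the authors' value in column 7 of each list, compared only within a list because no source used here gives its scale. The lists on the ce11 build were read: the optimal list of 1861 peaks, made by IDR (the irreproducible discovery rate), the pooled list, and 1 list for each replicate, all but the first with 30000 entries each. The lowest optimal signal was 47.4 and the median 65.5. The optimal peaks were exactly the 1861 pooled peaks of highest signal. The longer lists reach down into background, to 8.04 in the pooled list, 4.85 in replicate 1 and 3.53 in replicate 2. Read depth is unknown from these lists. A summit was placed at the 5′ end if it lay within 500 bp of the outermost annotated 5′ end of a gene. It was placed in the body if it lay farther in, up to the 3′ end, and past the 3′ end if it lay in the 500 bp beyond it.

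Each of the 8 genes had at least 1 optimal summit in these windows, against 1517 of all protein-coding genes (7.60%). A summit lay past the 3′ end of 5 members (hsp-1, hsp-110, hsp-6, F44E5.4 and F44E5.5), where 2.70% of all genes had one. It lay at the 5′ end of 6 members, all except F44E5.4 and F44E5.5, where 4.80% of all genes had one. It lay in the body of 3 members (hsp-1, hsp-110 and hsp-70), where 1.91% of all genes had one. In 5 of 8 members the signal past the 3′ end was above that at the 5′ end, counting a missing summit as 0, and this held in 2.19% of all genes. All 8 members had an optimal summit at 1 or both ends, whereas most genes had none there. Of the 1288 genes with a summit at 1 or both ends, 437 (33.9%) were higher past the 3′ end. With a summit at both ends it was 3 of 3 members (hsp-1, hsp-110 and hsp-6), against 108 of 211 genes (51.2%). The optimal list is the upper part of one pooled ranking, so members close to its edge are told apart by little. Just inside were hsp-4 at its 5′ end (47.8) and the second hsp-1 summit at its 5′ end (50.9). Just outside were hsp-70 (45.0), hsp-3 (44.3) and hsp-4 (41.4), each past its 3′ end.

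These counts rest unevenly on the replicates and settings. With replicate 1 alone, taking its 1861 highest peaks, the counts were 6 members at the 5′ end (5.24% of all genes), 4 in the body (1.82%), 6 past the 3′ end (2.45%) and 4 higher past the 3′ end (1.99%). With replicate 2 alone they were 2 at the 5′ end (2.94%), 3 in the body (2.71%), 4 past the 3′ end (2.71%) and 4 higher past the 3′ end (2.33%). In replicate 2 the genes at the 5′ end were hsp-3 and hsp-110 alone, and hsp-110 was not among those past the 3′ end. There hsp-6 was counted through a summit 347 bp past its 3′ end, which also lay 354 bp before the 5′ end of adss-1. The hsp-1 and F44E5.4 summits counted there lay inside the neighbouring genes nra-1 and F44E5.16. At the 5′ end 3 members were left among the 930 highest peaks (2.43%), and 3 with windows of 250 bp (3.37%). In the body 6 members had a summit in the whole pooled list (26.7%), and 6 had any overlap of an optimal peak (3.03%). Without F44E5.4 and F44E5.5, 3 of the other 6 members had a summit past the 3′ end.

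**Figure D1:**
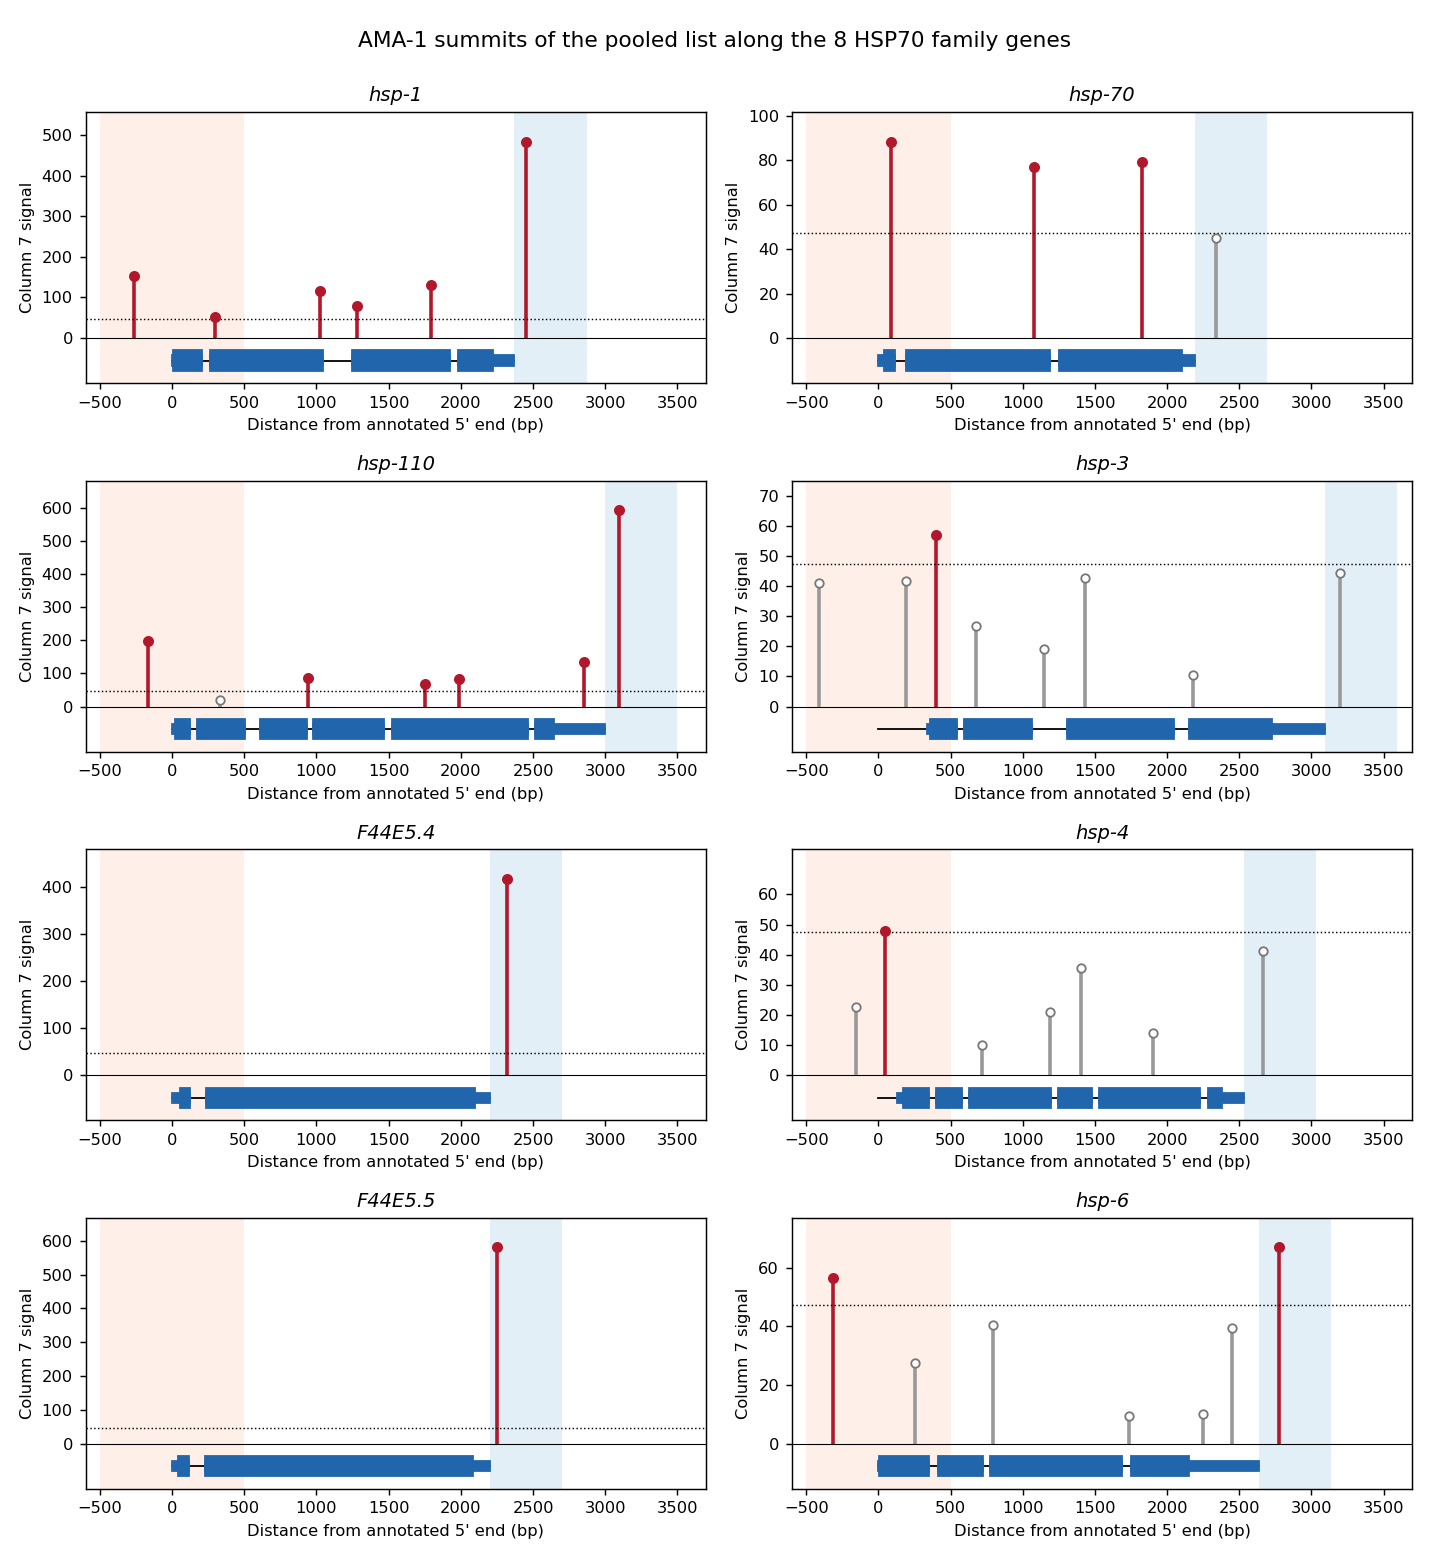
Column 7 signal of pooled summits (vertical axis, linear, scaled per panel) against distance from the outermost annotated 5′ end in bp, for the 8 genes. Red points are optimal peaks, open grey points lie below the optimal list's lowest signal of 47.4 (dotted line), orange and blue bands are the windows at the 5′ end and past the 3′ end, and blue boxes are the exons of the transcript with the longest coding sequence (tall: coding). The tallest summit of hsp-1, hsp-110, F44E5.4 and F44E5.5 stands just past the gene, at 418 to 594.

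RNA polymerase II runs on past the site where a message is cut and polyadenylated, and can slow there before it is released. The highest signals of the family lay just past the 3′ ends of 4 cytosolic members. hsp-110 had 594 in the pooled list, 98 bp past its 3′ end, which ranked 9 among all pooled peaks. F44E5.5 had 581 at 55 bp past its 3′ end (rank 11). hsp-1 had 484 at 82 bp (rank 13) and F44E5.4 had 418 at 119 bp (rank 18). Among the 540 genes with an optimal summit past the 3′ end, these 4 stood at places 4, 5, 6 and 10 by that signal, whereas hsp-6, with 66.9 at 140 bp, stood at place 283. The median over the 5 members with such a summit was 484, against 68.3 over all 540 genes. These values chose the members and support nothing further.

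Over the whole pooled list, background entries included, every member had a summit past its 3′ end, against 23.7% of all genes. The highest of these lay 55 to 146 bp past the end, with a median of 110 bp. In the 4726 genes with a pooled summit there, the median distance was 198 bp and 35.9% lay within 150 bp. That limit stands just above the members' highest distance, so their all falling within it carries no weight. The distance of 146 bp is that of the hsp-70 summit, which lay inside a transfer RNA gene. The summits of hsp-70, hsp-3 and hsp-4 were below the optimal list.

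The stretch past the 3′ end is shown for these 4 genes because it carries their highest peak. The sequences run 5′ to 3′ on the gene's strand from the first base past the annotated 3′ end, are read from the RefSeq WBcel235 genome, and stop after 200 bases or before the next annotated gene. Capitals mark the 11 bases centred on the pooled summit. The regions are chrIII:8443710-8443909 (minus strand) for hsp-110, chrII:11761862-11762061 (plus) for F44E5.5, chrIV:17281331-17281454 (plus) for hsp-1 and chrII:11756920-11757106 (minus) for F44E5.4.
hsp-110: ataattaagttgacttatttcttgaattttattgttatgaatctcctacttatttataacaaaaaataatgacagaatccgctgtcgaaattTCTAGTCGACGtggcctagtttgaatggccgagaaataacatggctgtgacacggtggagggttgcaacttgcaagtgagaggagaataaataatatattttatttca
F44E5.5: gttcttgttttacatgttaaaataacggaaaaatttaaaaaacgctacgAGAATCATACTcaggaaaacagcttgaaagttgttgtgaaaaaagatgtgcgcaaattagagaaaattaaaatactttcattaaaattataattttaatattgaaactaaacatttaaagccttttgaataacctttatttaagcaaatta
hsp-1: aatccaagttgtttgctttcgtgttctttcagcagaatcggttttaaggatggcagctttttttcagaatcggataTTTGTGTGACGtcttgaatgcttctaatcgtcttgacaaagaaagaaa
F44E5.4: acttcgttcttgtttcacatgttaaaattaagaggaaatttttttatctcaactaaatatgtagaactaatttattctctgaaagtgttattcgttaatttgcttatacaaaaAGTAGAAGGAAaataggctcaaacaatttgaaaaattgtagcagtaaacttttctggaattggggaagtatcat

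In the 200 bases past the 3′ end, A and T made up 66.5% for hsp-110, 76.0% for F44E5.5, 66.0% for hsp-1 and 72.0% for F44E5.4, against a median of 66.5% over all genes. The poly(A) signal AATAAA stood in the last 40 bases of 7 of the 8 genes, hsp-3 being the exception, and in 47.3% of all genes. Neighbouring genes lie close to some of these summits. The hsp-1 summit sat between 2 converging genes, 43 bp past the 3′ end of nra-1, which has the same summit in its own window. The hsp-110 summit lay 205 bp before the 5′ end of ufbp-1 on the same strand, so it falls in the 5′ window of that gene too. The F44E5.4 summit lay 69 bp past the end of the noncoding gene F44E5.16. These lists do not assign a peak to one gene of a pair.

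F44E5.4 and F44E5.5 had no other pooled summit from 500 bp before the 5′ end to 500 bp past the 3′ end, and most of the sequence inside these genes is not unique. Over their coding sequences of 1935 bases the 2 genes differed at 0 positions, and the whole genes were 99.9% identical. Of all words of 36 bases starting inside the gene, only 1.81% in F44E5.4 and 3.23% in F44E5.5 occur once in the genome, and 27.3% in the window at the 5′ end of each. That window was uneven: in 6 neighbouring bins of 50 bp between the divergent genes 72.0 to 100% of words were unique, and in the other bins of the window 0%. Replicate 2 listed a low summit in this stretch (8.50, rank 10514), which lies in the 5′ window of both genes, and the pooled list and replicate 1 listed none. Past the 3′ end the share was 98.2% for F44E5.4 and 100% for F44E5.5, and within 100 bp of the pooled summits it was 100% and 95.5%. With words of 50 bases the shares inside the genes were 2.04% and 4.27%. No source used here gives the read length or the handling of reads with several matches, and the part of uniqueness in the missing summits was not tested. The other 6 genes were 98.1 to 100% unique in 36-base words. Low uniqueness also touched hsp-70 past its 3′ end, where 80.0% of words were unique.

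**Figure D2:**
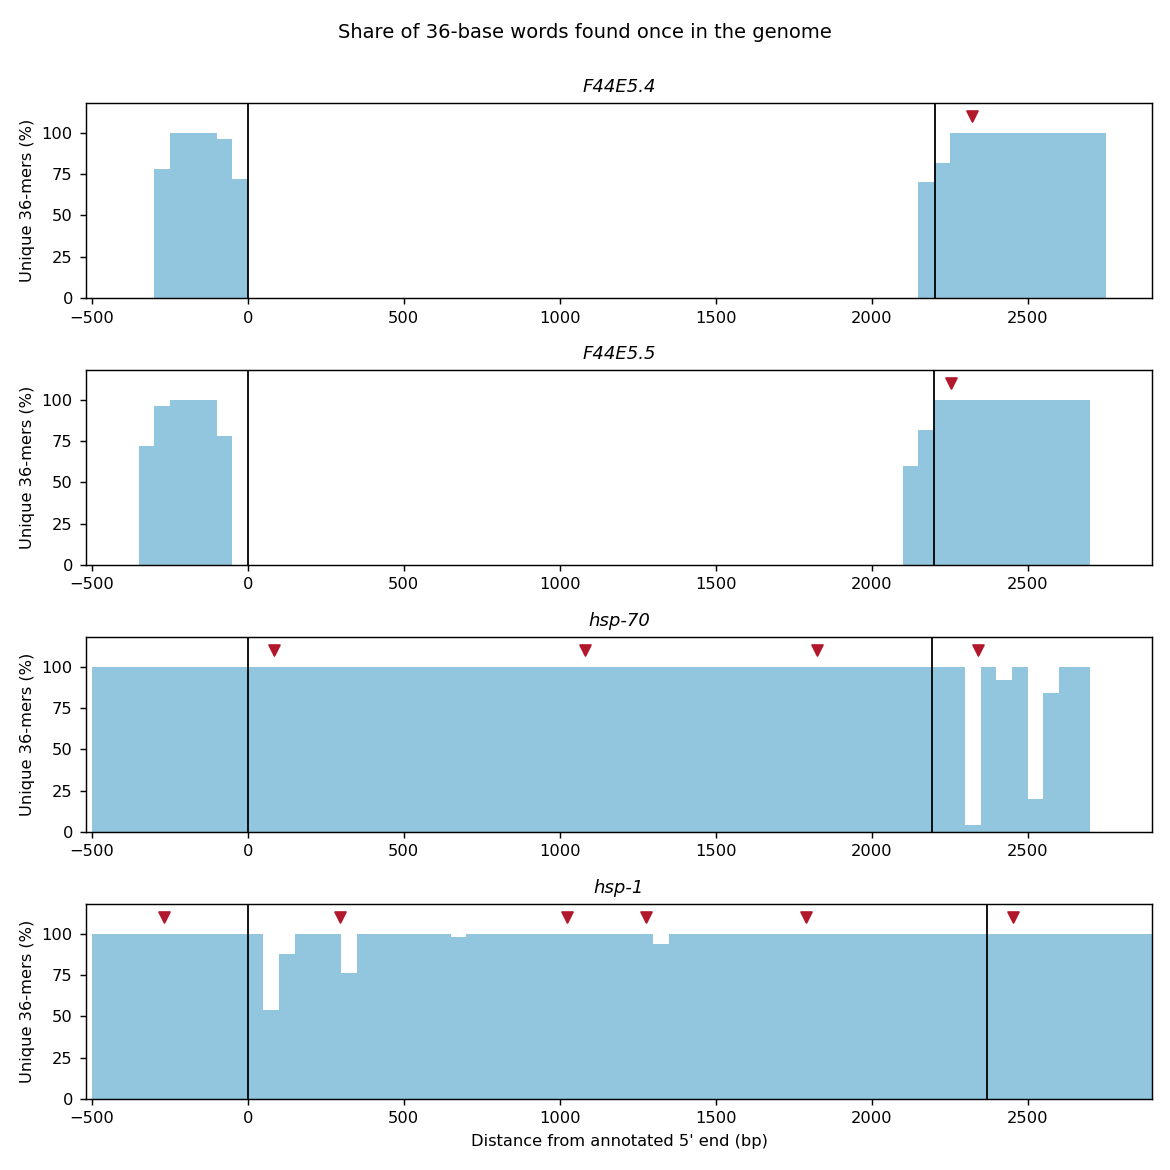
Percent of 36-base words found once in the genome (bars, bins of 50 bp, linear axis) against distance from the annotated 5′ end in bp, for F44E5.4, F44E5.5, hsp-70 and hsp-1. Black lines mark the 5′ and 3′ ends of the gene and red triangles the pooled summits. Bars are near 0 across F44E5.4 and F44E5.5 and return to full height past their 3′ ends, where their only pooled summits lie, while hsp-1 is 98.1% unique over the whole gene.

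hsp-1 and hsp-110 carried optimal summits along their whole length. Each had 6 from 500 bp before the 5′ end to 500 bp past the 3′ end, a number reached by 20 of all protein-coding genes (0.100%). For hsp-1 (chrIV:17278959-17281330, plus strand) they stood at -267 bp (152), 297 bp (50.9), 1023 bp (116), 1278 bp (78.7), 1791 bp (132) and 2453 bp (484) from the 5′ end. The signal was lowest shortly after the start and highest past the end, 3.19 times the highest value at the 5′ end. The summit pair at 1023 and 1278 bp lay in coding exons on both sides of an intron that holds the small nucleolar RNA gene F26D10.24, 64 bp before its 5′ end and 68 bp past its 3′ end. In each replicate list a single summit stood there instead, inside F26D10.24, at 90.8 in replicate 1 and 23.9 in replicate 2. Polymerase on hsp-1 and on the small RNA gene within it cannot be told apart at this resolution.

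For hsp-110 (chrIII:8443910-8446909, minus strand) the summits stood at -167 bp (199), 939 bp (85.6), 1755 bp (67.7), 1987 bp (83.1), 2856 bp (134) and 3097 bp (594) from the 5′ end. The summit at 939 bp was intronic, those at 1755 and 1987 bp were in coding exons, and that at 2856 bp was in the 3′ untranslated region. In these optimal summits the order was the same as in hsp-1, with a high start, lower values inside and a maximum past the end. That maximum was 2.98 times the highest value at the 5′ end. Replicate 2 alone had another order. There hsp-1 had 18.4 at the 5′ end, 30.3 in the body and 49.7 past the 3′ end. hsp-110 had 37.2 at the 5′ end, 28.8 in the body and no summit past the 3′ end. The summit at -167 bp lay 277 bp before rpn-3, a divergent gene for a proteasome subunit, and inside the noncoding gene C30C11.14. The 2 summits nearest the 3′ end share 1 peak interval of 648 bp, against a median optimal width of 370 bp.

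**Figure D3:**
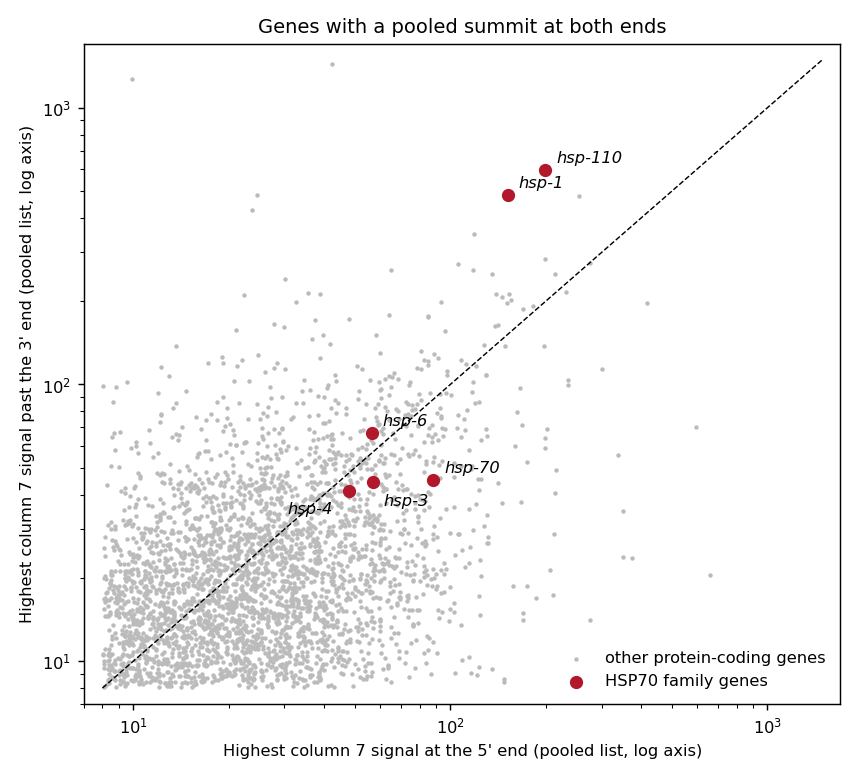
Highest pooled column 7 signal past the 3′ end (vertical, log axis) against that at the 5′ end (horizontal, log axis) for the 3296 genes with a pooled summit at both. Red points are the 6 HSP70 family genes among them, grey points the other genes, and the dashed line marks equal values. hsp-110 and hsp-1 stand above the line at 594 and 484, hsp-6 just above it, and hsp-3, hsp-4 and hsp-70 below it.

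The ratio of the 2 ends spread widely within the family. In the pooled list it was 3.19 in hsp-1, 2.98 in hsp-110, 1.18 in hsp-6, 0.864 in hsp-4, 0.778 in hsp-3 and 0.509 in hsp-70, with a median of 1.02. F44E5.4 and F44E5.5 have no pooled value at the 5′ end and give no ratio. Over all 3296 genes with a pooled summit at both ends the median was 0.878, and 42.3% had the higher value past the 3′ end, as did 3 of the 6 members. A ratio of at least 3 was reached by 154 of those genes (4.67%), hsp-1 among them.

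The inducible gene hsp-70 lies in an intron of uggt-2, on the opposite strand. Its 3 optimal summits had similar signals, and its pooled value past the 3′ end was lower relative to its 5′ end than in the other 5 members with a ratio. The optimal summits were at 85 bp (88.4), 1081 bp (77.2) and 1824 bp (79.3) from the 5′ end, all in coding exons, and the value past its 3′ end was 45.0. That last summit lay inside a transfer RNA gene, 146 bp past the 3′ end, a kind of gene that RNA polymerase III transcribes. In replicate 1 the values were 94.2 at the 5′ end, 76.8 in the body and 25.3 past the 3′ end. Replicate 2 had no summit at the 5′ end, 8.91 in the body and 13.0 past the 3′ end. The 3 optimal summits had counterparts within 5 bp in replicate 1.

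By the highest optimal signal of each gene, the BiP genes were the lowest of the family. hsp-3 (chrX:6089028-6092124, minus strand) had 1 optimal summit, at 399 bp (57.0) from the outermost 5′ end. The transcript with its longest coding sequence starts at 339 bp, so the summit lies close to that start. Another 7 pooled summits, at 10.6 to 44.3, were spread from before the gene to past its end. hsp-4 (chrII:7350112-7352645, minus strand), the BiP gene that responds strongly to stress in the endoplasmic reticulum, had 1 optimal summit at 49 bp (47.8), with 41.4 past its 3′ end. At its 5′ end hsp-3 had 48.3 in replicate 1 (rank 989 of 30000) and 31.4 in replicate 2 (rank 558), from summits at 244 bp and -408 bp. hsp-4 had 40.5 in replicate 1 and 4.91 in replicate 2 at the 5′ end.

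The mitochondrial gene hsp-6 (chrV:4824124-4826760, minus strand) had an optimal summit at each end and none inside. The summit at -312 bp (56.6) lay 288 bp before the divergent gene C37H5.5 and inside the noncoding gene C37H5.16. It also lay 6 bp before the 5′ end of another noncoding gene, C37H5.15. The summit past the 3′ end (66.9, at 140 bp) was 1.18 times as high. In the replicates alone the values past the 3′ end and at the 5′ end were 52.0 and 54.2 in replicate 1, and 23.9 and 8.78 in replicate 2. Which end was higher therefore differed between the replicates. The replicate 2 value of 23.9 came from a summit 347 bp past the 3′ end, which lay 354 bp before the 5′ end of the gene adss-1. The other replicate 2 summit past the 3′ end, at 146 bp, had 10.1.

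The order of the members by their highest pooled signal was hsp-110 (594), F44E5.5 (581), hsp-1 (484), F44E5.4 (418), hsp-70 (88.4), hsp-6 (66.9), hsp-3 (57.0) and hsp-4 (47.8). The lists give no error for a pooled value. In replicate 1 alone the same genes led, with 567, 563, 437 and 408, and hsp-70 (94.2), hsp-6 (54.2), hsp-3 (48.3) and hsp-4 (40.5) followed in the same order. In replicate 2 alone the order was hsp-1 (49.7), hsp-110 (37.2), F44E5.4 (32.5), hsp-3 (31.4), hsp-6 (23.9), F44E5.5 (23.3), hsp-70 (13.0) and hsp-4 (9.35). hsp-4 was lowest in both lists. The distance between the leading 4 genes and the others was absent in replicate 2, where hsp-3 and hsp-6 stood above F44E5.5. The hsp-6 value there came from the summit 354 bp before the 5′ end of adss-1. The hsp-1 and F44E5.4 values there came from summits inside nra-1 and F44E5.16.

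The tall peaks past the 3′ ends were far lower in rank in replicate 2. F44E5.5 had 563 in replicate 1 (rank 7 of 30000) and 23.3 in replicate 2 (rank 1259). F44E5.4 had 408 (rank 13) in replicate 1 and 32.5 (rank 506) in replicate 2, where the summit lay 267 bp past the end. There it stood inside the noncoding gene F44E5.16. hsp-1 had 437 (rank 12) in replicate 1 and 49.7 (rank 173) in replicate 2. That replicate 2 summit lay 170 bp past the end, inside the 3′ untranslated region of nra-1. hsp-110 had 567 (rank 6) in replicate 1, and replicate 2 listed no summit in the 500 bp past its 3′ end. The nearest there stood inside the gene, 154 bp before the 3′ end (27.1, rank 836).

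**Figure D4:**
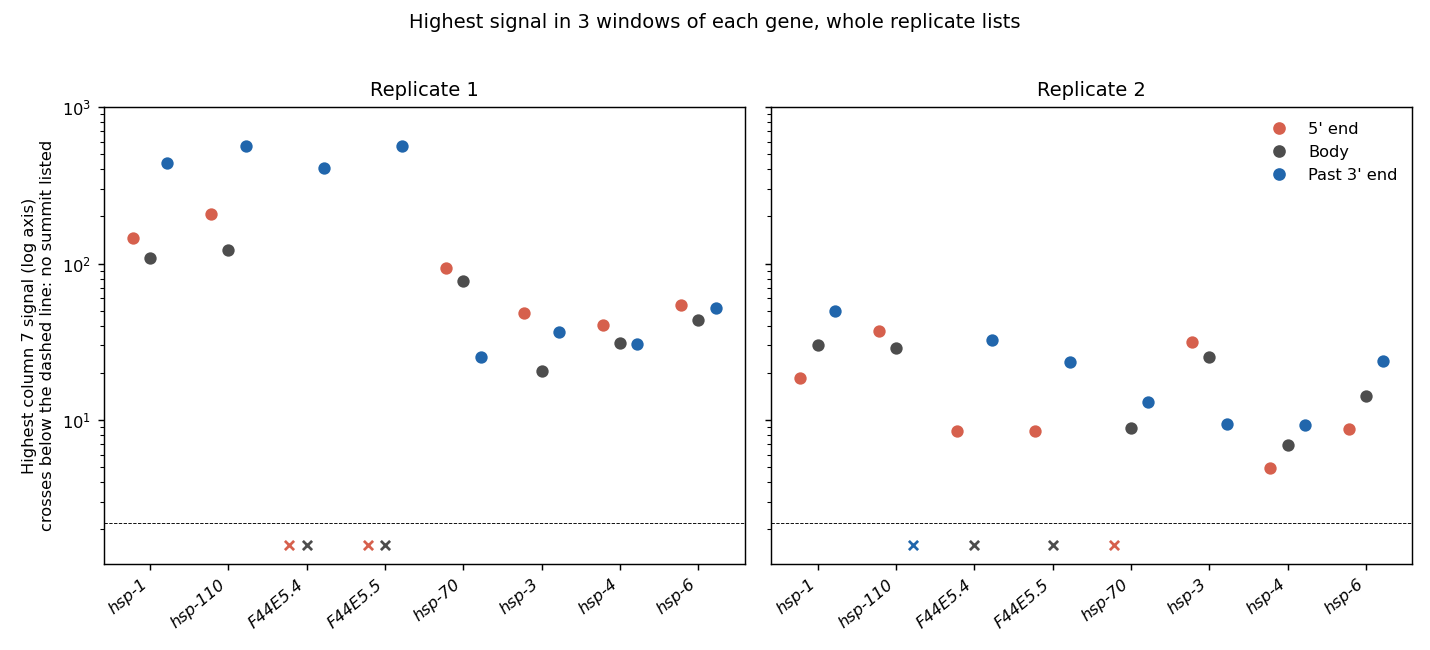
Highest column 7 signal (log axis) at the 5′ end, in the body and past the 3′ end of each gene, in the whole list of replicate 1 (left) and replicate 2 (right); crosses below the dashed line mark windows with no listed summit. In replicate 1 the points past the 3′ end of hsp-1, hsp-110, F44E5.4 and F44E5.5 stand at 408 to 567. The highest point in replicate 2 is 49.7. The scales of the 2 lists are not known to be equal, so heights are compared only within a panel.

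Across all 21 optimal peaks of the family, 18 were overlapped in both whole replicate lists, and replicate 1 was higher in 18 of those 18. Taking the highest overlapping entry in each list, the median log2 ratio of replicate 1 to replicate 2 was 2.96 at the family's peaks, with a range of 1.13 to 4.59, against 1.28 over all optimal peaks. Wide entries are then used for more than 1 peak of hsp-1 and hsp-110. Taking the overlapping entry of nearest summit instead, a choice made after seeing the data, the median was 2.56 (1.28 to 4.59) at the family's peaks and 1.33 over all optimal peaks. The 18 ratios then came from 17 entries of replicate 1 and 16 of replicate 2, so they are not separate values. The scales of the 2 lists are not known to be equal, so a ratio is read only against the overall median. With the nearest summits 17 of the 18 family ratios lay above that median, and the hsp-110 intron peak (1.28) lay below it. No test was made, since each side is 1 library. Of the family's optimal peaks 14.3% had no overlapping entry in replicate 2, against 4.30% of all optimal peaks. These were 2 peaks of hsp-70 and 1 of hsp-110.

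The bases before the 5′ ends of 7 members, all except hsp-3, are described here for the sites of HSF-1 and of the unfolded protein response. These letters were not read in choosing the genes. The genes were chosen by name as heat shock protein genes, however, and some are known as heat-inducible. Such sites among them are therefore no separate result. The heat shock element is built of GAA and TTC units in alternation, 2 bases apart, and 3 such units in a row were searched on both strands in the 250 bases before the 5′ end. They were found in 5 members, namely hsp-1, hsp-110, hsp-70, F44E5.4 and F44E5.5, against 1.63% of 19972 promoters. Rows of 4 units were found in F44E5.4 and F44E5.5, whose promoters overlap, against 0.140% of promoters. The pairs GAANNTTC and TTCNNGAA, each part of the longer element, were found in 6 members each, against 15.7% and 15.0% of promoters. hsp-4 held both pairs but no row of 3 units. TGACGTG, the core of an element bound by unfolded protein response factors, was found in hsp-4, against 2.39% of promoters. hsp-6 held none of these, which says only that these letters are not in this window. A match is a description of letters and not of binding.

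The promoters of 4 cytosolic genes with a heat shock row and of hsp-4 with its TGACGTG match are shown, so that the elements can be seen in place. Each is the 250 bases before the annotated 5′ end on the gene's strand, from the RefSeq WBcel235 genome, and capitals mark rows of 3 or more heat shock units and TGACGTG on either strand. F44E5.4 (chrII:11759312-11759561, minus strand) and F44E5.5 (chrII:11759412-11759661, plus) diverge from a shared stretch of 350 bases, so their promoters overlap. hsp-1 is at chrIV:17278709-17278958 (plus), hsp-110 at chrIII:8446910-8447159 (minus) and hsp-4 at chrII:7352646-7352895 (minus).
F44E5.4: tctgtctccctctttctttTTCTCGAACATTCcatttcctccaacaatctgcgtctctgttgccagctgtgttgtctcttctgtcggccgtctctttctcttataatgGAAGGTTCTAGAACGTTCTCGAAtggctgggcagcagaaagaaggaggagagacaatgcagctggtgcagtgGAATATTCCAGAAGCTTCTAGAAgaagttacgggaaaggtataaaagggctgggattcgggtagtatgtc
F44E5.5: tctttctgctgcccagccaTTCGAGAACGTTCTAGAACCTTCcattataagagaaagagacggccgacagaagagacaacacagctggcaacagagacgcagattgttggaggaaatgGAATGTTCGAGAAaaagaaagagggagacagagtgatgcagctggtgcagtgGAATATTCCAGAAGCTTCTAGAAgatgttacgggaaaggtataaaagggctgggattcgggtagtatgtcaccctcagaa
hsp-1: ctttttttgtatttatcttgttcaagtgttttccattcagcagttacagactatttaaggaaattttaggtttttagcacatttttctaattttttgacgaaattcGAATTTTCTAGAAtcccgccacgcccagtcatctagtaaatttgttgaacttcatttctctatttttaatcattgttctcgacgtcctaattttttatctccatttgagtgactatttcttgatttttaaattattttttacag
hsp-110: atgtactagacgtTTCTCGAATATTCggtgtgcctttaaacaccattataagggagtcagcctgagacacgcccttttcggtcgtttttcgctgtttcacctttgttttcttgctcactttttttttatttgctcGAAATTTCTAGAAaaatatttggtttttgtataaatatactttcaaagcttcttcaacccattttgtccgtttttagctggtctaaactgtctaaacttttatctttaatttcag
hsp-4: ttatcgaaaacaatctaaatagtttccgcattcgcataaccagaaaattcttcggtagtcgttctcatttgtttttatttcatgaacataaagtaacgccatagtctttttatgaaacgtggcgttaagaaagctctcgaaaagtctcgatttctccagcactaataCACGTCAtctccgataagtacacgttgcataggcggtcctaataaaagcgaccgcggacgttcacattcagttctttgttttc

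In hsp-1 the row of heat shock units lay 144 to 132 bases before the 5′ end, downstream of the summit at -267 bp. In hsp-110 there were 2 rows, at 237 to 225 and at 115 to 103 bases before the 5′ end, and the summit at -167 bp lay between them. In hsp-4 the match was on the opposite strand, 83 to 77 bases before the 5′ end. TATAAA stood 31 to 26 bases before the 5′ end of F44E5.4, 41 to 36 before that of F44E5.5 and 45 to 40 before that of hsp-70. It was also found in hsp-110, 86 to 81 bases before the 5′ end, and in 35.2% of all promoters.

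The annotated 5′ ends of hsp-1, hsp-110 and hsp-6 directly follow the letters CAG, which is how a splice acceptor ends, and 22.1% of all protein-coding genes share this. Many C. elegans messages receive a spliced leader in trans, and for those the annotated 5′ end can be the acceptor rather than the start of transcription. In these 3 genes the highest pooled summit at the 5′ end lay upstream of it, at -267, -167 and -312 bp. The letters were looked at after the summits were seen, and no relation between them was tested.

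Coding sequences set the 3 cytosolic inducible genes and the BiP pair apart as the closest relatives. hsp-70 shared 80.6% of aligned coding bases with F44E5.4 and F44E5.5, and hsp-3 shared 78.1% with hsp-4. hsp-1 was closest to hsp-3 (71.9%). hsp-110 was the most distant, at 61.8 to 63.6% with the other members, and its coding sequence of 2328 bases was the longest. Among these relatives the pooled signals past the 3′ end were 418 for F44E5.4, 581 for F44E5.5 and 45.0 for hsp-70, and 44.3 for hsp-3 and 41.4 for hsp-4.

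**Figure D5:**
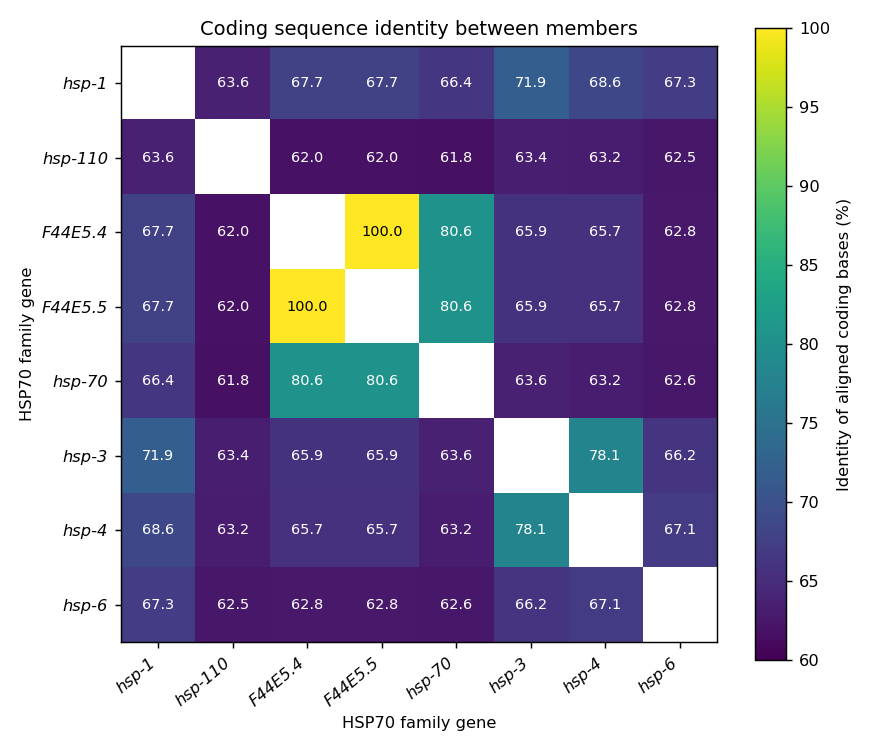
Percent identity of aligned coding bases between each pair of members (colour scale from 60 to 100%, values printed in the cells). F44E5.4 and F44E5.5 are identical, hsp-70 stands at 80.6% to both, hsp-3 and hsp-4 share 78.1%, and hsp-110 stays at or below 63.6% with all others.

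Genes that work with HSP70 were read from lists of symbols in the same way. Of 29 J-domain co-chaperone genes, 5 had an optimal summit at the 5′ end, 1 in the body and 5 past the 3′ end. dnj-13 had 119 at the 5′ end and 349 at 114 bp past the 3′ end, and dnj-12 had 66.7 and 110. dnj-9 had 90.9 and 79.1, and dnj-19 had 49.0 and 55.6. The dnj-13 value past the 3′ end (349) was also the highest at the 5′ end of F54D5.7. The dnj-9 value past the 3′ end (79.1) was likewise that at the 5′ end of F11G11.5. dnj-5 had a summit only past the 3′ end (55.3), dnj-11 only at the 5′ end (60.8), and dnj-20 2 in the body (52.3 and 56.9). The other J-domain genes had none.

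Of 7 other cofactors, 3 had a summit at the 5′ end, 1 in the body and 3 past the 3′ end. unc-23, which encodes a BAG2-type exchange factor, had 240 at 57 bp past its 3′ end and 3 lower summits in the body (50.1 to 87.1). sti-1, which encodes the HOP protein that links HSP70 to HSP90, had 67.5 at the 5′ end and 81.3 past the 3′ end. bag-1 had 78.6 and C34C12.8, a GrpE-type exchange factor gene, 95.2 at the 5′ end, and sgt-1 had 73.3 past the 3′ end. hip-1 and chn-1 had none. Of 4 further HSP70 superfamily genes, T24H7.2 had a summit past the 3′ end (53.6), and stc-1, T14G8.3 and F11F1.1 had none.

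Of 13 regulators of the heat shock and unfolded protein responses, 3 had an optimal summit. xbp-1, whose product drives the response of the endoplasmic reticulum, had 149 at the 5′ end and 137 at 123 bp past the 3′ end. atfs-1, the regulator of the mitochondrial response, had 141 at the 5′ end and 54.9 in the body, and clpp-1 had 69.9 at the 5′ end. hsf-1, hsb-1, ddl-1, ddl-2, ire-1, pek-1, atf-6, ubl-5, dve-1 and haf-1 had none. These counts stand beside 4.80%, 1.91% and 2.70% of all genes with a summit at the 5′ end, in the body and past the 3′ end. They were not tested.

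The genes most like the family were found from the highest signals in 3 windows in 2 replicates, 6 values in all, as the smallest Euclidean distance on the log2(signal + 1) scale from the median of the members. They were efk-1 (distance 1.07), rsp-6 (1.28), pgm-1 (1.33), nhr-17 (1.49) and F21F3.6 (1.50). efk-1, which encodes a kinase of an elongation factor, had 114 past its 3′ end and 52.5 at its 5′ end in the optimal list, and rsp-6, a splicing factor gene, had 114 and 78.6. The efk-1 value past the 3′ end was also the highest past the 3′ end of nfm-1 and at the 5′ end of F42A10.9. The members themselves lay 1.59 (hsp-6) to 8.78 (F44E5.5) from their own median, so that median stands for no single member well.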

How the data were processed

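ChIP-seq against AMA-1 was made from 2 biological replicates of L2 larvae, 1 group. The peak lists were deposited as narrowPeak files. The deposited file descriptions trace a replicate list to its own alignment plus 1 further file, the pooled list to both alignments, and the optimal list to those 3 by IDR. No source used here gives the aligner, peak caller, versions or IDR threshold. The deposited signal in column 7 is the authors' value per peak, never negative and of unstated scale. Other deposited values, the summit offsets of column 10, lie within 1 bp of the peak centre in 85.2% of optimal peaks.

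Positions were read on ce11 only, against the Ensembl release 115 annotation and the RefSeq WBcel235 sequence, whose chromosome lengths hold every peak end. No coordinate was converted and the ce10 lists were not used. Summits were assigned to windows with Python 3.11.15 and pandas 2.3.3, checked on planted positions. Coding sequences were aligned globally with Biopython 1.88. No test was run, because the members and lists were chosen with earlier results of these data known. Named genes are the 8 members, the 5 most alike, listed cofactors with an optimal summit, and genes near a member's summit. Listed genes without a summit are named to complete their lists. hsp-90, hsp-16.48, hsp-16.2, hsp-16.41, R11A5.3 and ahsa-1 were named after their values were seen. So were F54D5.7, F11G11.5, F42A10.9 and nfm-1, which share a value with a named gene. Of 30 J-domain symbols 29 matched. Alternatives were the 930 highest peaks, whole lists, single replicates, windows of 250 and 1000 bp, and whole-peak overlap. No sequence is shown for hsp-70, and the promoter of hsp-3 is not reported here.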

Additional observations from a re-analysis of the deposited data

How the results depend on the processing

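With the 930 pooled peaks of highest signal, 3 members kept a summit at the 5′ end in place of 6, and with windows of 250 bp also 3. Over the whole pooled list 6 members had a summit in the body and 8 past the 3′ end, in place of 3 and 5, while 26.7% and 23.7% of all genes then had one. Counting any overlap of the peak with the body gave 6 members. Without F44E5.4 and F44E5.5, an alternative chosen after seeing the data, 3 of the remaining 6 members had a summit past the 3′ end and 3 were higher there than at the 5′ end. With 1 replicate left out, the count at the 5′ end was 2 to 6 (2 from replicate 2 alone), in the body 3 to 4, past the 3′ end 4 to 6, and with the higher signal past the 3′ end 4 in either case. The other counts under these alternatives stayed within 1.5 times. The median log2 ratio of the replicates at the family's peaks was 2.56 with the entries of nearest summit, in place of 2.96. The cause of these changes was not tested. No paired analysis was possible because the series has 1 group. Read depth is unknown and 2 libraries give no spread, so no error stands beside a signal.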

Other observations

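Outside the family, 320 protein-coding genes hold a row of 3 heat shock units in the 250 bases before the 5′ end. Of these, 17 (5.31%) had an optimal summit past the 3′ end, against 2.68% of all 19965 genes outside the family, and 27 (8.44%) had one at the 5′ end, against 4.77%. No test was made, and divergent genes can share one promoter stretch. rpn-3 is in both counts although its 250 bases before the 5′ end overlap those of hsp-110. Its value at the 5′ end (199) is that of the hsp-110 summit at -167 bp. hsp-16.2 and hsp-16.41 had the same value at the 5′ end (236). The counts are therefore neither free of the family's peaks nor counts of separate peaks. The highest signals past the 3′ end were those of hsp-90 (272), a chaperone that receives clients from HSP70, and of the 2 genes annotated as hsp-16.48 (212 each), which encode small heat shock proteins. R11A5.3 had 151 and dnj-12 had 110. Of the 26 outside genes with a row of 4 units, only ahsa-1, named for the activator of the HSP90 ATPase, had such a summit (95.3), and 0 had one at the 5′ end. Of the 475 outside genes with TGACGTG, 8 (1.68%) had a summit past the 3′ end, against 2.68% of all genes outside the family, and 25 (5.26%) had one at the 5′ end, against 4.77%.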
